A study of Mus musculus with 16 samples.

Results

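The mouse mitochondrial genome carries 37 annotated genes, and all 37 were found among the 55536 genes of the deposited count table. They were taken by their symbols, which begin with mt- in the GENCODE M21 annotation of the genome build GRCm38. Of these, 13 code for proteins, 2 for ribosomal RNAs (rRNAs) and 22 for transfer RNAs (tRNAs). RNA was sequenced from the red gastrocnemius (an oxidative part of the calf) and the visceral fat of 8 female mice. The tested genotype was a conditional deletion of MyD88 in muscle (MusMyD88-/-, mice 139, 958, 960 and 29), and the other genotype was the Cre-control (mice 131, 137, 138 and 11). Each mouse gave both tissues by its subject number, so there were 4 libraries each of knockout muscle, control muscle, knockout fat and control fat. All mice of both genotypes had 5 weeks of wheel running and then 8 days of restricted movement in a small cage, so no group without running or without restriction enters here. The sources used here do not state the promoter that drives Cre, the age of the mice or their strain.

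Mitochondrial DNA is transcribed from both strands into long precursors, and the tRNAs that punctuate them are cut out to release the messenger and ribosomal RNAs. The proteins it encodes are core subunits of respiratory complexes I, III and IV and of the ATP synthase (complex V), and the remaining subunits come from nuclear genes. Red muscle is rich in mitochondria, while white adipocytes hold fewer. Copies of mitochondrial sequence are also found in nuclear DNA, as pseudogenes.

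Library totals were 15203806 to 21747345 counts for muscle and 13242243 to 19114782 for fat. Unless another scale is named, a level is a CPM value, the count after scaling every library to the same total of all its counts. The skeletal muscle markers summed to 339745 to 369989 CPM in muscle and 1200 to 17168 CPM in fat. The adipocyte markers summed to 173 to 351 CPM in muscle and 6681 to 27760 CPM in fat. The fat of control mouse 138 was the lowest for the adipocyte markers, and its smooth muscle markers summed to 20560 CPM, against a median of 655 CPM over the 4 control fat libraries. Myd88 was at 1.68 to 2.24 CPM in knockout muscle and 2.04 to 3.42 CPM in control muscle, so the groups overlapped for the targeted gene. Ribosomal RNA was removed by hybridisation with Ribo-Zero Gold, which targets cytoplasmic and mitochondrial rRNA, and the removal was uneven. Control muscle of mouse 131 had 27974 CPM of the cytoplasmic rRNA gene CT010467.1 and that of mouse 11 had 19833 CPM, while the other 14 libraries had 14.4 to 55.6 CPM.

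A stretch of the mitochondrial genome was almost without counts. Summed over all 16 libraries, mt-Co2, a core subunit gene of cytochrome c oxidase (complex IV), had 10 counts, and the ATP synthase genes mt-Atp8 and mt-Atp6 had 1 and 5. Within the same stretch, mt-Co3 of complex IV had 113 counts, and the complex I genes mt-Nd3 and mt-Nd4l had 1155 and 83. Directly upstream of it, mt-Co1, the catalytic subunit of complex IV, had 5719548 counts.

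Each of these low genes but mt-Atp8 is also found, nearly whole, among nuclear transcripts. The annotated transcripts of GRCm38 were searched for every 51-base word of each mitochondrial gene, 51 bases being the read length. Every word of mt-Co2 also occurred in a nuclear transcript, as did 99.5% of the words of mt-Atp6, 99.9% of mt-Co3, 98.0% of mt-Nd3 and 98.8% of mt-Nd4l. The share was 62.2% for mt-Nd4, 50.6% for mt-Co1, 8.00% for mt-Nd2, 7.22% for mt-Nd5 and 0.979% for mt-Rnr2. No word was shared by mt-Nd1, mt-Cytb, mt-Nd6, mt-Rnr1, mt-Atp8 or any tRNA gene. The low counts of mt-Atp8 therefore came without such a match among annotated transcripts. The sources used here do not say how reads with several matching places were treated, so the part of this treatment in the low counts was not tested.

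Most of the shared words lay in a block of 7 annotated pseudogenes on the minus strand of nuclear chromosome 1, chr1:24611535-24616197 (GRCm38). In that block Gm28661 was identical to mt-Co2 over 681 aligned bases, Gm10925 to mt-Atp6 over 678, Gm28437 to mt-Co3 over 783, Gm10222 to mt-Nd4l over 294 and Gm28439 to part of mt-Nd4 over 876. Gm28438 differed from mt-Nd3 at 1 of 345 bases. Between the copies of mt-Atp6 and mt-Co2 the block has 233 bases, chr1:24614652-24614884, with no annotated transcript, at the place that mt-Tk and mt-Atp8 take in the mitochondrial order. Further gaps of 140, 69 and 74 bases lie at the places of mt-Ts1 with mt-Td, of mt-Tg and of mt-Tr. No genome sequence was used here, so the bases of these gaps were not compared with mt-Atp8 or these tRNA genes. The 7 pseudogenes together had 1343 counts, and all 15 nuclear transcripts that share a word with a mitochondrial gene had 2424. In each library they had far fewer counts than the mitochondrial coding genes.

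The first 75 bases of mt-Co2 (chrM:7013-7087, plus strand) and of its copy Gm28661 (chr1:24615491-24615565, minus strand) show a pair of genes that a read of this length cannot tell apart. The sequences come from the GENCODE M21 transcripts.
mt-Co2: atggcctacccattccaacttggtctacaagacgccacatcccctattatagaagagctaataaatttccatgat
Gm28661: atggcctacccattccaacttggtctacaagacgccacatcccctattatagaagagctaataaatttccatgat
The stretch below, from mt-Co1 (chrM:5787-5861, plus strand) and from its copy Gm13340 on chromosome 2 (chr2:22589114-22589188, minus strand), shows a place where a pair can be told apart. It was chosen as a stretch of 75 bases with the most differences. Elsewhere the pair is alike in places, as 402 of the 1495 words of mt-Co1 also occurred in Gm13340. The capitals mark the 5 bases at which they differ.
mt-Co1: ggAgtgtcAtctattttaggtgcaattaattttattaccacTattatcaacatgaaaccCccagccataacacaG
Gm13340: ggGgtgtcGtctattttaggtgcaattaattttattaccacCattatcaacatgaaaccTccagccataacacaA
Over 1545 aligned bases mt-Co1 and Gm13340 differed at 37. Gm13340 had 733 counts over the 16 libraries.

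The gene mt-Atp8 (chrM:7766-7969, plus strand) is shown because it was nearly without counts although none of its words was shared. The capitals mark the 43 bases that are also annotated to mt-Atp6, so a read that covers part of them overlaps both genes.
mt-Atp8: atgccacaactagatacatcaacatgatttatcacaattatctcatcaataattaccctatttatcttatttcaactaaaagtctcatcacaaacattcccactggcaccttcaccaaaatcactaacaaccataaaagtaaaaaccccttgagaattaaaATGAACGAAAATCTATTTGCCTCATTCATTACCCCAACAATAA
The 5 tRNA genes inside the stretch, from mt-Ts1 to mt-Tr, had 28 of all 6792 tRNA counts. Low tRNA counts were also found outside it, with 16 counts for mt-Tf, 10 for mt-Tl2, 7 for mt-Tv, 5 for mt-Th and 3 for mt-Ts2. The tRNA genes mt-Td and mt-Tk, for aspartate and lysine, had 0 counts in all libraries, which allows up to 3 counts over the 16 libraries and covers counting error only.

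**Figure D1:**
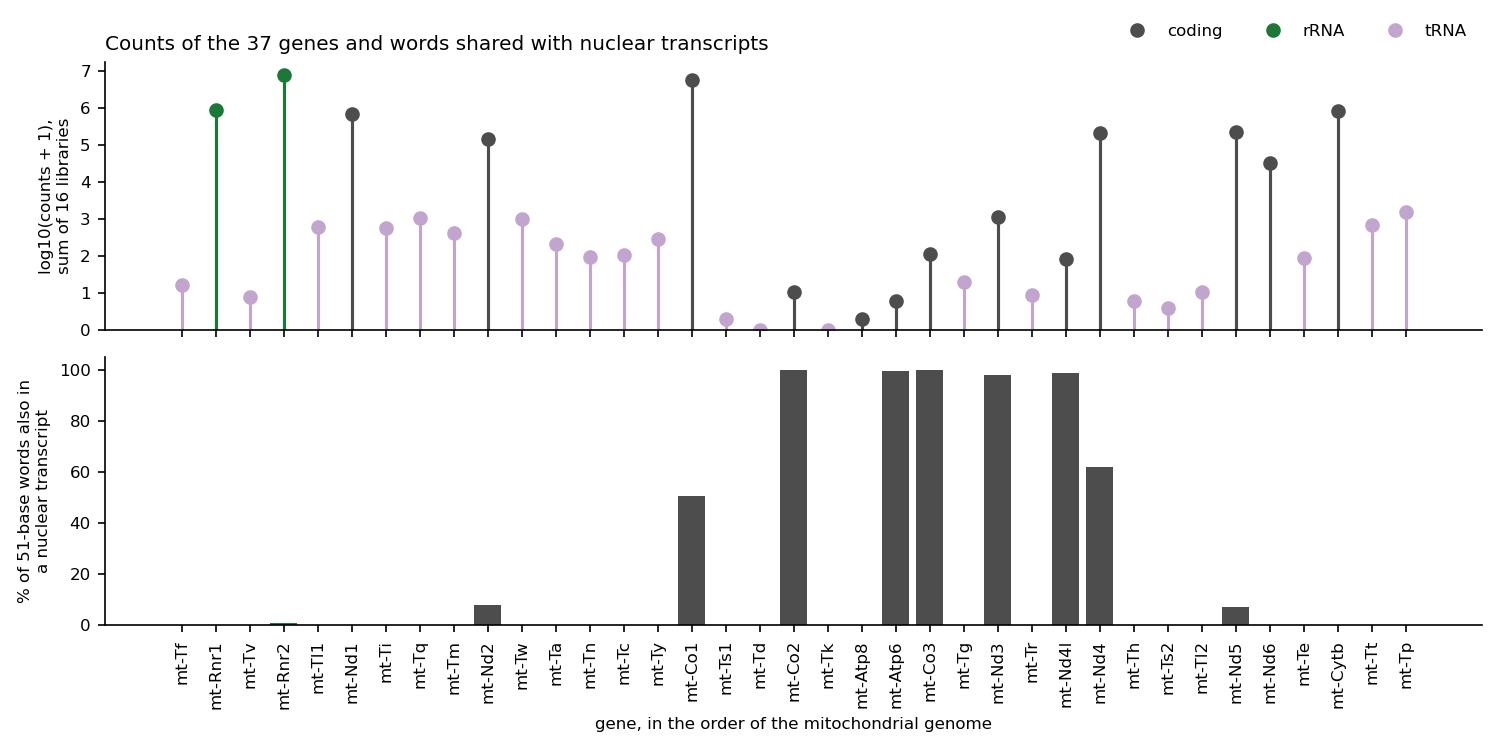
The upper panel plots log10(counts + 1), summed over the 16 libraries, for the 37 genes in genome order, coloured by class, and the lower panel the percent of each gene's 51-base words that also occur in a nuclear transcript. From mt-Ts1 to mt-Nd4l the counts fall to between 0 and 1155 per gene, and 5 coding genes there share 98.0 to 100% of their words, while mt-Atp8 shares 0.

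Mitochondrial transcripts made up a similar part of the counts in both tissues and genotypes, and the rRNAs were the part that varied most. The 37 genes held 3.83, 6.75, 6.996 and 6.58% of all counts in the muscle of knockout mice 139, 958, 960 and 29, against 3.99, 8.78, 5.21 and 6.28% in the muscle of control mice 131, 137, 138 and 11. They held 5.71, 5.31, 7.47 and 5.18% in knockout fat and 9.19, 4.87, 3.01 and 4.80% in control fat, with the mice in the same order. The ranges of all 4 groups overlapped, and the means were 6.04 ± 1.48, 6.06 ± 2.03, 5.92 ± 1.06 and 5.47 ± 2.62% (SD, n = 4 each).

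The coding genes alone were steadier. The genes from mt-Co2 to mt-Nd4l added next to nothing to their total, so shares with it stand for the other coding genes. The coding genes held 3.19, 3.08, 3.58 and 2.94% of all counts in knockout muscle and 2.97, 3.80, 3.02 and 2.94% in control muscle. They held 2.91, 2.45, 3.20 and 2.09% in knockout fat and 2.89, 2.45, 1.41 and 2.29% in control fat. All 8 muscle libraries lay at or above 2.94%, and 1 of the 8 fat libraries did, that of knockout mouse 960. With both mitochondrial rRNA genes and the cytoplasmic rRNA genes taken out of the total, the coding and tRNA share averaged 3.29 ± 0.28% in knockout muscle, 3.32 ± 0.45% in control muscle, 2.76 ± 0.52% in knockout fat and 2.35 ± 0.69% in control fat (SD, n = 4 each).

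Within the mitochondrial total, the 2 rRNA genes took 16.5, 54.3, 48.9 and 55.3% in knockout muscle and 25.7, 56.7, 42.0 and 53.1% in control muscle. In fat the rRNA share was 49.0, 53.8, 57.1 and 59.7% in knockouts and 68.5, 49.6, 53.3 and 52.2% in controls. The low values were those of muscle from knockout mouse 139 and control mouse 131, and the high value that of fat from the same control mouse. The coding genes took nearly all of the rest, averaging 56.2% in knockout muscle, 55.6% in control muscle, 45.1% in knockout fat and 44.1% in control fat. The tRNA genes took 0.0499 ± 0.0174, 0.0444 ± 0.0088, 0.0392 ± 0.0045 and 0.0433 ± 0.0121% in the same order (SD, n = 4 each). Class shares therefore moved with the rRNA that was left in each library, and the part of rRNA removal in them was not tested.

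**Figure D2:**
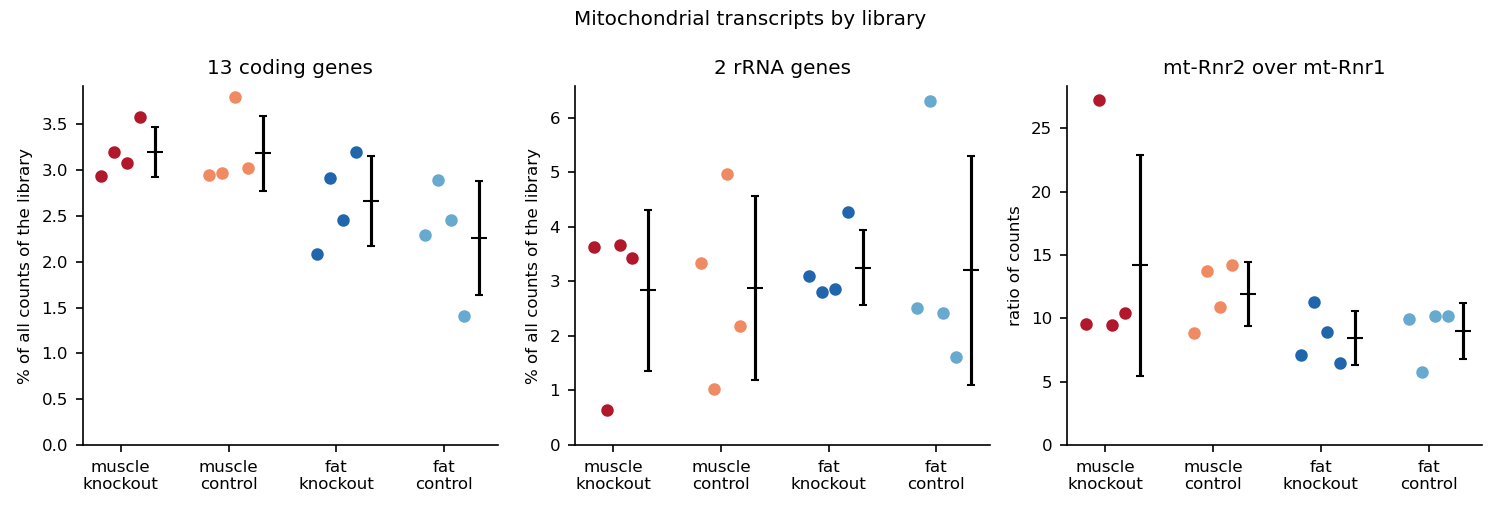
Points are libraries in the order of the mouse numbers, with the group mean and SD (n = 4) at the right of each group. The panels show the percent of all counts in the 13 coding genes, the percent in the 2 rRNA genes, and the ratio of mt-Rnr2 to mt-Rnr1 counts. The muscle of knockout mouse 139 stands at 0.633% rRNA and at a ratio of 27.2.

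The large-subunit rRNA mt-Rnr2 (16S, chrM:1094-2675) was the gene with the most counts, 7685809 over all libraries, and the small-subunit rRNA mt-Rnr1 (12S, chrM:70-1024) had 881005. mt-Rnr2 was at 6108, 33213, 31177 and 32911 CPM in knockout muscle and 9553, 45546, 20426 and 29944 CPM in control muscle. In fat it was at 25696, 25668, 36978 and 27062 CPM in knockouts and 53611, 21976, 14626 and 22776 CPM in controls. The libraries within a group thus spread further apart than the group means.
mt-Rnr1 was at 224, 3495, 3001 and 3444 CPM in knockout muscle, against 694, 4186, 1438 and 3400 CPM in control muscle. In fat it was at 2282, 2888, 5681 and 3823 CPM in knockouts, against 9344, 2165, 1438 and 2282 CPM in controls. The ratio of mt-Rnr2 to mt-Rnr1 counts was 27.2, 9.50, 10.4 and 9.56 in knockout muscle and 13.8, 10.9, 14.2 and 8.81 in control muscle. It was 11.3, 8.89, 6.51 and 7.08 in knockout fat and 5.74, 10.2, 10.2 and 9.98 in control fat. The rRNA genes are neighbours transcribed from the same promoters, and the 2 were not in a fixed proportion in these libraries. The ratio was highest in the library with the least mitochondrial rRNA and lowest in the library with the most. The libraries with much cytoplasmic rRNA, the muscle of control mice 131 and 11, had 25.7 and 53.1% rRNA within the mitochondrial total, so high CT010467.1 did not go with high mitochondrial rRNA in both.

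Among the coding genes that were well counted, mt-Co1 dominated. The coding total holds next to nothing of mt-Co2, mt-Atp8, mt-Atp6, mt-Co3, mt-Nd3 and mt-Nd4l, so shares of it do not cover these genes. mt-Co1 took 82.6, 73.4, 74.0 and 71.2% of the coding counts in knockout muscle and 76.2, 71.3, 76.4 and 74.8% in control muscle. In fat it took 72.9, 71.1, 64.6 and 71.6% in knockouts and 69.7, 74.9, 76.5 and 71.9% in controls. The highest share was again in the muscle of knockout mouse 139.
Levels can be compared between genes only per length, and here the length was the number of 51-base words that no nuclear transcript shares. On that scale (CPM per kb of unshared words) mt-Co1 averaged 32384 ± 3210 in muscle and 23719 ± 4727 in fat (SD, n = 8 each). mt-Nd1, a membrane subunit of complex I, averaged 3374 ± 648 in muscle and 1982 ± 485 in fat. mt-Cytb, the only mitochondrially encoded subunit of complex III, averaged 2632 ± 642 in muscle and 2654 ± 786 in fat.
The other complex I genes were lower. Per kb of unshared words, mt-Nd4 averaged 1441 ± 280 CPM in muscle and 1621 ± 685 in fat, and mt-Nd2 averaged 586 ± 134 in muscle and 586 ± 278 in fat. mt-Nd5 averaged 409 ± 85.5 in muscle and 581 ± 330 in fat. mt-Nd6, the coding gene of the opposite (light) strand, averaged 269 ± 90.8 in muscle and 215 ± 63.7 in fat. On this scale the means of both tissues descended in the order mt-Co1, mt-Nd4, mt-Nd2, mt-Nd5 and mt-Nd6, whereas mt-Nd1 was above mt-Cytb in muscle and below it in fat. The ranges of mt-Nd1 and mt-Cytb overlapped in both tissues, at 2336 to 4361 and 1626 to 3667 in muscle and at 1187 to 2625 and 1231 to 3658 in fat. The scale takes reads that match a copy as not counted, which no source used here states, and mt-Co1 and mt-Nd4 depend most on it.
Per kb of full length, mt-Co1 averaged 15469 CPM in muscle and 11330 in fat, and mt-Nd4 averaged 525 in muscle and 591 in fat. mt-Nd2 averaged 513 CPM per kb in muscle and 513 in fat, and mt-Nd5 averaged 369 in muscle and 524 in fat. By full length mt-Nd5 was thus slightly above mt-Nd2 in fat, and mt-Nd4 was close to mt-Nd2 in muscle, so the order of these 3 genes depends on the scale.

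The tRNA genes were barely sampled, at 211 to 625 counts per library over all 22 genes. Mature tRNAs are near the read length and heavily modified, and their counts can also come from unprocessed precursors. The best counted was mt-Tp, for proline, a light-strand gene with 1536 counts in all, and then mt-Tq (1099), mt-Tw (1022), mt-Tt (685), mt-Tl1 (598) and mt-Ti (580). Among the less counted, mt-Tc had 106 counts, mt-Tn 96, mt-Te 88 and mt-Tg 19. Sequences are given for the most counted gene, mt-Tp (chrM:15356-15422, minus strand), for mt-Ti (chrM:3706-3774, plus strand), which had the largest tissue difference, and for mt-Td (chrM:6942-7011, plus strand), which had no counts. Capitals mark bases also annotated to a neighbouring gene.
mt-Tp: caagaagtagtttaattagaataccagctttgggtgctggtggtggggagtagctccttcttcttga
mt-Ti: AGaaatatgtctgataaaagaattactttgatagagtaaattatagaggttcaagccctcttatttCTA
mt-Td: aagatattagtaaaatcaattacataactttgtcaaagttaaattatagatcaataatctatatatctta
Light-strand tRNA genes took a median of 42.5% of the tRNA counts in muscle, between 36.0 and 55.8%, and a median of 58.2% in fat, between 51.9 and 64.5%. The tissues overlapped in these shares. The kit keeps strand, but no source used here states the strand setting of the counting, so reads of overlapping or opposite genes cannot be told apart with certainty.

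Between the tissues, mitochondrial transcripts were higher in muscle relative to other genes, and the size of the difference was uneven among them. After the filter on low counts, 19 of the 37 genes could be tested, namely both rRNA genes, 8 coding genes (mt-Nd1, mt-Nd2, mt-Nd3, mt-Nd4, mt-Nd5, mt-Nd6, mt-Co1 and mt-Cytb) and 9 tRNA genes. In the edgeR quasi-likelihood test with TMM scaling, 17 of these were higher in muscle at an adjusted p under 0.05 and 0 were lower, beside 35.6% of the 17084 genes tested that were called higher. The median log2 fold change of the 19 genes, muscle over fat, was 1.18, against -0.16 over all genes tested. This fit had no mouse term, so both libraries of a mouse entered as independent. With the mouse as replicate block 16 of the 19 were called. With library totals in place of TMM factors, 6 were called, all higher, beside 1907 of all 17084 genes called higher and 13622 called lower. On that scale 9 of the 19 had a fold change below 0, and the median over all genes was -1.36. Relative to the median of all genes on each scale, the 19 fold changes ran from 0.70 to 2.53 with TMM factors and from 0.77 to 2.57 with library totals. A change of scale shifts all genes nearly alike, so this likeness was fixed in advance and does not test the scaling. Fewer cells of a type and less RNA per cell cannot be told apart in whole tissue.

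mt-Nd1 was the coding gene with the largest difference. In TMM-scaled CPM it ran from 3110 over a median of 4606 to 5870 in muscle and from 579 over 1123 to 1717 in fat, so every muscle library lay above every fat library. In CPM of total counts the tissues overlapped, with 2119 the lowest in muscle and 2381 the highest in fat. Its log2 fold change was 1.94 (SE 0.21, edgeR adjusted p = 2.59e-07).
mt-Co1 ran from 30898 over a median of 35879 to 40212 in muscle and from 5777 over 11920 to 14979 in fat on the same scale, without overlap. In CPM of total counts they overlapped, with 20939 the lowest in muscle and 21249 the highest in fat. Its log2 fold change was 1.62 (SE 0.22, edgeR adjusted p = 4.11e-06), and it was still called higher in muscle with library totals (0.45, adjusted p = 0.0272).
mt-Cytb, at a median of 4279 TMM-scaled CPM in muscle and 1831 in fat, had a log2 fold change of 1.15 (SE 0.25, adjusted p = 0.000409), and the libraries overlapped, from 2610 in muscle and up to 2945 in fat. mt-Nd5, at a median of 944 in muscle and 578 in fat, had the smallest fold change of the coding genes, 0.70 (SE 0.31, adjusted p = 0.0455). That call was lost when any mouse but 960 was left out (adjusted p 0.0598 to 0.113), without mice 131 and 11 (0.134) and without a filter (0.127). The other coding genes tested lay between these, with mt-Nd6 at 1.48, mt-Nd3 at 1.21, mt-Nd2 at 1.18 and mt-Nd4 at 1.02, each with an adjusted p of at most 0.00153.

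Of the rRNAs, mt-Rnr2 was called higher in muscle, with a log2 fold change of 1.02 (SE 0.41, edgeR adjusted p = 0.0306). The call was lost with the mouse as replicate block (0.99, adjusted p = 0.0819) and when mouse 11, 29, 137 or 958 was left out (adjusted p 0.0787 to 0.105) and without a filter (0.0619). mt-Rnr1 was at 0.54 (SE 0.54, adjusted p = 0.362) and passed only without mouse 131 (1.216, adjusted p = 0.0408). Among tRNAs the fold changes were 2.37 for mt-Ti (SE 0.30), 1.97 for mt-Tw, 1.72 for mt-Tt, 1.64 for mt-Tl1, 1.41 for mt-Tm, 1.16 for mt-Tp, 1.10 for mt-Tq and 0.95 for mt-Ty, all called, and 0.58 (SE 0.32, adjusted p = 0.111) for the alanine tRNA gene mt-Ta, which passed without mouse 131 (0.88, adjusted p = 0.0211). mt-Ti was at 4.55, 1.67, 2.14 and 3.49 CPM in knockout muscle and 2.89, 4.56, 1.48 and 2.53 CPM in control muscle. It was at 1.84, 0.671, 1.28 and 1.19 CPM in knockout fat and 1.78, 1.34, 0.831 and 1.004 CPM in control fat. On this scale, without TMM factors, the tissues overlapped.

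**Figure D3:**
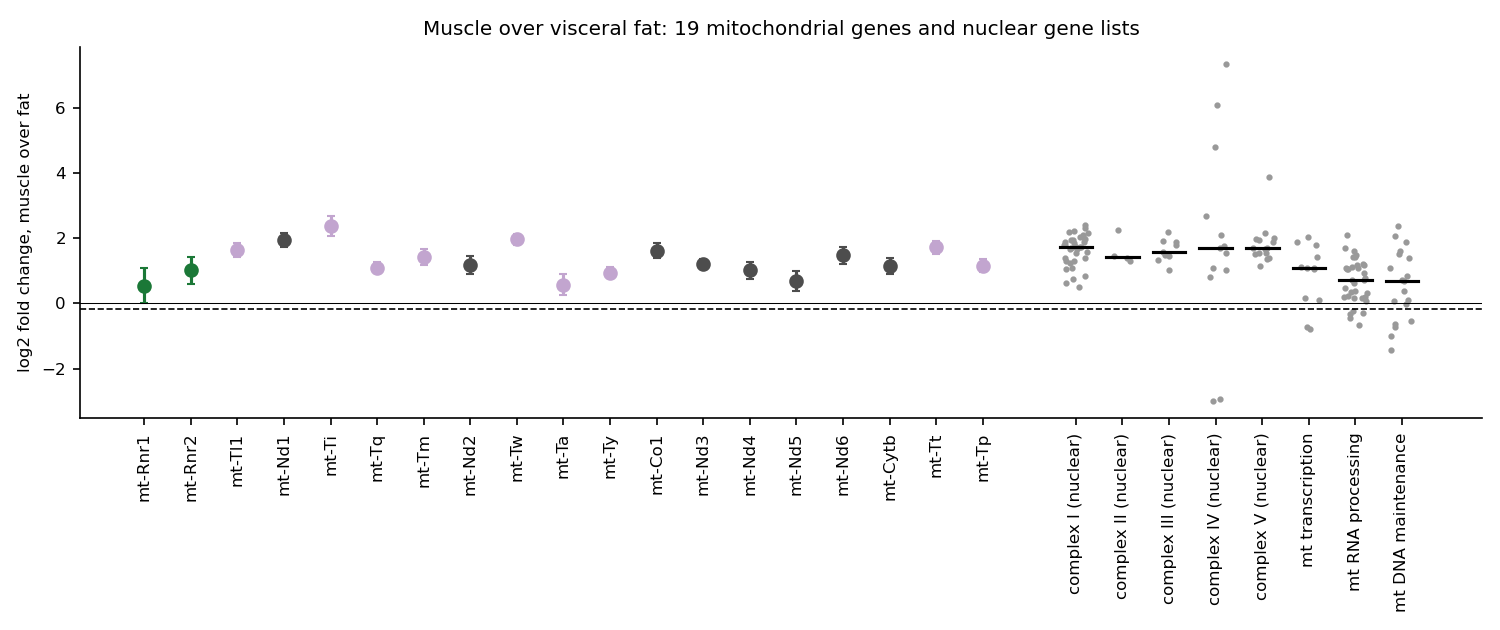
Points with bars are log2 fold changes, muscle over fat, with their SE for the 19 mitochondrial genes tested (green rRNA, grey coding, violet tRNA; TMM scaling). Small points are genes of the nuclear lists with their median as a line, and the dashed line is the median of all genes at -0.16. The mitochondrial genes lie between 0.54 and 2.37, and the nuclear subunits of complexes I to V have medians of 1.42 to 1.73.

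Within the mitochondrial transcripts, some ratios of coding genes to mt-Nd1 differed between the 2 tissues. mt-Nd1 is the coding gene with the largest tissue difference, so ratios to it tend to be lower in muscle by that choice. The counts of mt-Cytb per mt-Nd1 count were 0.839, 0.923, 0.963 and 1.01 in knockout muscle and 0.936, 1.01, 0.884 and 0.892 in control muscle. They were 1.56, 1.58, 1.68 and 1.64 in knockout fat and 1.72, 1.63, 1.25 and 1.68 in control fat. The lowest fat library, that of control mouse 138 with its low adipocyte and high smooth muscle markers, still lay above every muscle library, and the part of those markers in its value was not tested.
The ratio of mt-Nd4 to mt-Nd1 was 0.274, 0.200, 0.207 and 0.239 in knockout muscle and 0.279, 0.262, 0.211 and 0.236 in control muscle. It was 0.394, 0.467, 0.653 and 0.464 in knockout fat and 0.357, 0.447, 0.295 and 0.451 in control fat, again without overlap between the tissues. The ratio of mt-Nd5 to mt-Nd1 was 0.163 to 0.329 in muscle and 0.292 to 0.922 in fat, with an overlap that came from the fat of control mouse 138. The ratio of mt-Nd2 to mt-Nd1 was 0.149 to 0.204 in muscle and 0.182 to 0.443 in fat. These genes lie downstream of mt-Nd1 on the same strand. The ratio of mt-Co1 to mt-Nd1 overlapped, at 6.67 to 12.4 in muscle and 8.69 to 11.7 in fat. As shares of the coding counts, all coding genes overlapped between the tissues. The share of mt-Cytb was 5.57 to 10.8% in muscle and 9.58 to 13.7% in fat. That of mt-Nd4 was 1.82 to 2.72% in muscle and 2.26 to 4.86% in fat.

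The proportions were also tested, by setting each library's size to its mitochondrial coding total. On that scale 90.6% of all 17084 genes were called in edgeR, 1140 higher and 14337 lower in muscle. The median log2 fold change over all genes was -1.81. The calls among mitochondrial genes are thus differences in share of the coding counts, of which mt-Co1 is the main part. Of the 19, 2 were called higher in muscle, mt-Nd1 at 0.39 (SE 0.14, adjusted p = 0.0146) and mt-Ti at 0.84 (SE 0.28, adjusted p = 0.00785). Lower in muscle were mt-Nd5 at -0.79 (SE 0.20, adjusted p = 0.000992), mt-Nd4 at -0.50 (SE 0.16, adjusted p = 0.00647) and mt-Cytb at -0.37 (SE 0.16, adjusted p = 0.0338), and the tRNA genes mt-Ta at -0.97, mt-Ty at -0.63 and mt-Tq at -0.46. These 3 tRNA genes are on the light strand. Also on that strand, mt-Tp (-0.41, adjusted p = 0.0609) and mt-Nd6 (-0.055, adjusted p = 0.775) were not called. mt-Co1 was at 0.07 (SE 0.15, adjusted p = 0.667) on this scale, which holds it near 0 because it is the main part of the coding total.

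**Figure D4:**
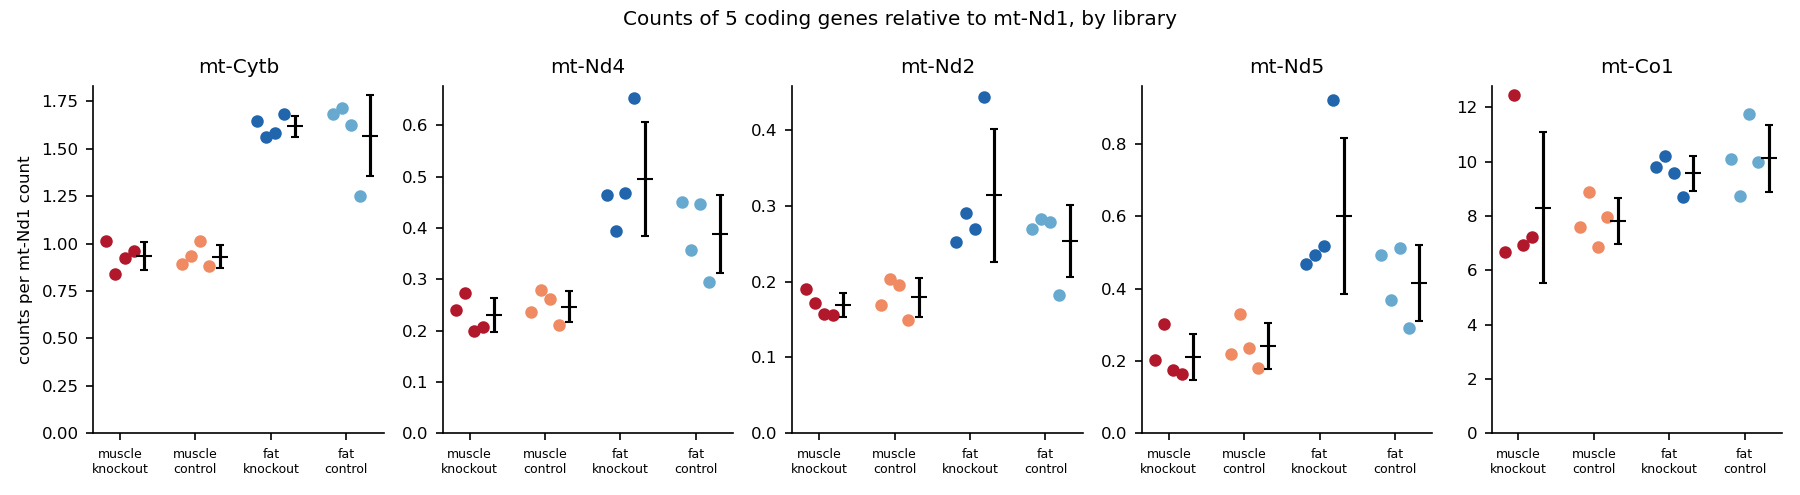
Counts of 5 coding genes per mt-Nd1 count, 1 point for each library in the order of the mouse numbers, with group mean and SD (n = 4). For mt-Cytb and mt-Nd4 every fat library lies above every muscle library, and the fat of knockout mouse 960 stands at 0.922 for mt-Nd5.

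The nuclear genes for the same complexes went in the same direction between tissues. Of the 77 nuclear subunit genes of complexes I to V, 75 were higher and 2 lower in muscle in edgeR, beside 35.6% of all 17084 genes called higher and 43.7% called lower, with a median log2 fold change of 1.70 against -0.16 over all genes. By complex, 36 of 36 complex I genes were higher (median 1.73), 4 of 4 of complex II (1.42), 9 of 9 of complex III (1.57), 11 of 13 of complex IV (1.70) and 15 of 15 of complex V (1.70). Examples were Ndufa5 of complex I at 2.39 (SE 0.08) and Uqcrb of complex III at 1.87 (SE 0.09).
The complex IV genes that were lower in muscle were Cox6a1 at -2.99 (SE 0.15) and Cox8a at -2.92 (SE 0.16), isoforms of broad expression. Their muscle isoforms Cox6a2 and Cox8b were at 7.35 (SE 0.39) and 4.80 (SE 0.25), and Cox7a1, also a muscle isoform, at 6.07 (SE 0.24). The counts of the 13 mitochondrial coding genes were 2.05 to 2.99 times those of these 77 nuclear genes in muscle and 1.93 to 3.70 times in fat, ranges that overlapped. The mitochondrial genes from mt-Co2 to mt-Nd4l added next to nothing to these counts.

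Genes that act on mitochondrial DNA and RNA were less uniform, and their counts stand beside the same 35.6% higher and 43.7% lower of all genes. Of 12 genes of mitochondrial transcription, 8 were higher and 2 lower in muscle (median log2 fold change 1.09). Tfam, which packages mitochondrial DNA and starts its transcription, was at 1.78 (SE 0.06), and the elongation factor gene Tefm at 1.42 (SE 0.10). Mterf1a and Mterf1b, mouse genes for a factor that binds the transcript end behind the rRNA genes, were lower, at -0.72 (SE 0.18) and -0.77 (SE 0.25). They are near-identical paralogs, so the split of reads between them is uncertain.
Of 35 tested genes of mitochondrial RNA processing, stability and decay, 26 were higher and 3 lower (median 0.71). Lrpprc, which stabilises mitochondrial messenger RNAs, was at 1.61 (SE 0.06), and Fastk, whose mitochondrial form is needed for mt-Nd6 mRNA, at 2.11 (SE 0.07). Lower in muscle were Rexo2, an oligoribonuclease, at -0.45 (SE 0.07), and the RNA modification genes Trmt61b at -0.67 (SE 0.15) and Pus1 at -0.22 (SE 0.09). Of 19 genes of mitochondrial DNA maintenance, 11 were higher and 5 lower (median 0.70). Sucla2, a succinyl-CoA ligase subunit, was at 2.37 (SE 0.10), and Tk2, the mitochondrial thymidine kinase, at -1.43 (SE 0.09).

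Between genotypes, no mitochondrial gene was called in muscle. In edgeR 0 of the 19 genes tested passed an adjusted p of 0.05, beside 0.0141% of all 14183 genes, which were 2 genes. At an unadjusted p under 0.05 there were 3 mitochondrial genes in edgeR and 2 in DESeq2, which called 0 of 35. The members' median log2 fold change, knockout over control, was -0.05, and that of all genes 0.00.
mt-Nd5, a complex I subunit gene, was at 644, 571, 596 and 639 CPM in knockout muscle and 836, 938, 525 and 637 CPM in control muscle. Controls 131 and 137 lay above all knockouts, control 138 below all of them and control 11 within their range, and the log2 fold change was -0.34 (SE 0.15, edgeR adjusted p = 0.949). mt-Nd3 was at 4.05, 3.53, 3.62 and 3.95 CPM in knockout muscle and 5.13, 6.15, 3.37 and 4.77 CPM in control muscle, and its log2 fold change was -0.43 (SE 0.17, adjusted p = 0.949).
The threonine tRNA gene mt-Tt was at 3.86, 2.18, 1.89 and 2.39 CPM in knockout muscle, against 2.89, 4.67, 3.16 and 2.83 CPM in control muscle. Its log2 fold change was -0.49 (SE 0.22, edgeR adjusted p = 0.949), and knockout mouse 139 lay within the controls. On average mt-Ta was higher in knockout muscle, at 0.739 ± 0.250 against 0.472 ± 0.226 CPM (SD, n = 4 each). So was mt-Ty, at 1.14 ± 0.22 against 0.792 ± 0.191 CPM. mt-Tc, too low to pass the filter, was alone among the 37 genes in not overlapping. It was at 0.306 to 0.690 CPM in knockout and 0.197 to 0.294 CPM in control muscle. These were 6 to 15 and 3 to 5 counts per library. How many of all genes separate in this way was not counted. The abundant genes were near 0, with mt-Co1 at -0.05 (SE 0.12), mt-Nd1 at -0.08 (SE 0.17) and mt-Cytb at -0.07 (SE 0.23). For the rRNAs the errors were larger than any of the fold changes of other members, with mt-Rnr1 at 0.01 (SE 0.92) and mt-Rnr2 at -0.08 (SE 0.66). Of the marker lists, 8 of 8 macrophage genes (median log2 fold change 0.43) and 6 of 6 endothelial genes (0.15) were above 0 in muscle. So were 6 of 8 adipocyte genes (0.23) and 2 of 2 brown adipocyte genes tested (0.35). Below 0 were 5 of 5 erythroid genes (-0.21), 4 of 5 smooth muscle genes tested (-0.19) and 7 of 10 skeletal muscle genes (-0.03). In these lists 0 genes were called, and the part of the markers was not tested.

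In visceral fat, outside the tissue of the knockout, 0 of 19 mitochondrial genes passed in edgeR, beside 0.00613% of all 16323 genes, which was 1 gene. There were 0 at an unadjusted p under 0.05 in edgeR, and in DESeq2, which called 0 of 32. The median log2 fold change was 0.17 over the 19 genes and -0.01 over all genes.
The values furthest from 0 were those of complex I genes. mt-Nd5 was at 1027, 941, 2195 and 712 CPM in knockout fat and 851, 803, 314 and 806 CPM in control fat, so the high value of knockout mouse 960 and the low value of control mouse 138 set the ends. Its log2 fold change was 0.81 (SE 0.49, edgeR adjusted p = 0.666), and it was between 0.32 and 1.01 when 1 mouse at a time was left out. mt-Nd4 was at 819, 849, 1556 and 707 CPM in knockout fat and 825, 700, 318 and 736 CPM in control fat (log2 fold change 0.60, SE 0.42, adjusted p = 0.688, and 0.25 to 0.80 with 1 mouse at a time left out). mt-Nd2 was at 604, 490, 1055 and 383 CPM in knockout fat and 654, 437, 196 and 440 CPM in control fat (0.54, SE 0.48, adjusted p = 0.750, and 0.14 to 0.87 with 1 mouse left out). In both genes the same 2 libraries were the highest and the lowest.
The tyrosine tRNA gene mt-Ty was at 1.57, 1.34, 1.34 and 1.06 CPM in knockout fat and 0.732, 1.14, 0.906 and 1.004 CPM in control fat, with a log2 fold change of 0.52 (SE 0.24, adjusted p = 0.627). Without mouse 138 the median of the members was -0.03, and without mice 131 and 11 it was 0.66. The markers of smooth muscle and urothelium were high in the fat of mouse 138, at 20560 and 2042 summed CPM, against at most 1071 and 31.8 CPM in the knockout fat libraries, and their part in these values was not tested.
In the marker lists 0 genes were called in edgeR. All 10 skeletal muscle markers had a fold change above 0 (median log2 0.89), at 1200 to 17168 summed CPM in knockout fat and 1629 to 8736 in control fat. All 5 erythroid markers were below 0 (median -0.81), at 97.4 to 188 summed CPM in knockout fat and 127 to 304 in control fat. The medians were -0.88 over 5 brown adipocyte, -2.47 over 6 smooth muscle and -0.22 over 8 macrophage markers, each with every gene below 0, and 0.24 over 6 endothelial markers, all above 0. Of 8 adipocyte markers 7 were above 0 and 1 below (median 0.25). The mesothelium markers, with 2 above 0 and 2 below, and the B cell markers tested, with 1 above and 2 below, were mixed. The part of these markers in the mitochondrial values was not tested.

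An interaction term over all 16 libraries compared the genotype effects, muscle minus fat. In edgeR without a mouse term, 0 of the 19 mitochondrial genes and 0% of all 17084 genes passed, and 0 members had an unadjusted p under 0.05. With the mouse as replicate block 0 members passed, and 2 had an unadjusted p under 0.05. DESeq2 called 0 members, with 1 at an unadjusted p under 0.05, and 13 genes in all. The largest value was that of mt-Nd5, at -1.14 (SE 0.54, edgeR adjusted p = 0.685), between -1.36 and -0.65 when 1 mouse was left out, and then mt-Nd4 at -0.81 (SE 0.47) and mt-Nd2 at -0.71 (SE 0.55). A p that misses the threshold does not show that the genotypes were alike.

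**Figure D5:**
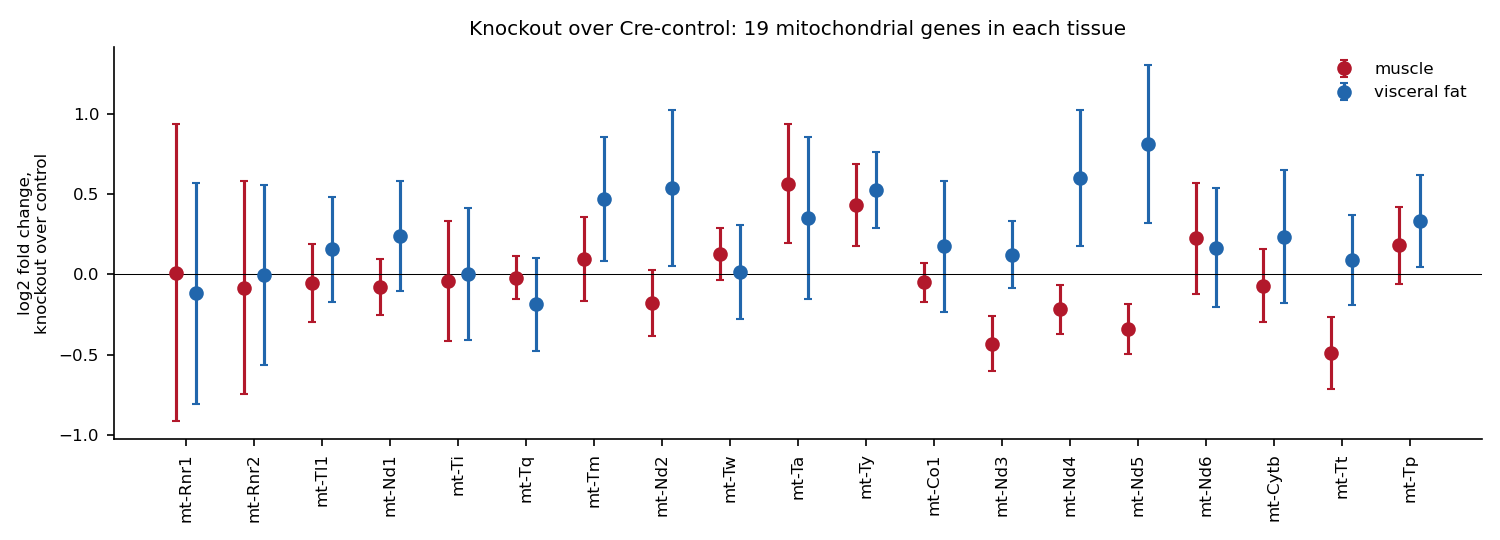
Log2 fold changes, knockout over control, with their SE, of the 19 mitochondrial genes tested in muscle (red) and visceral fat (blue). In muscle the values lie between -0.49 and 0.56 and in fat between -0.18 and 0.81, and no gene passed an adjusted p of 0.05 in either tissue.

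The nuclear genes of these lists were not called between genotypes either. In edgeR 0 of the 77 respiratory chain genes passed in muscle and 0 in fat. In muscle 69 of the 77 fold changes were above 0, with a median of 0.07, beside 0.00 over all genes, and in fat 57 of 77 were, with a median of 0.06, beside -0.01 over all genes. In muscle the gene nearest the threshold was Atp5l of the ATP synthase at -0.28 (SE 0.09, adjusted p = 0.907), and in fat Ndufs7 of complex I at 0.29 (SE 0.12, adjusted p = 0.620). Of the lists of mitochondrial transcription, RNA processing and DNA maintenance, 0 genes passed in either tissue, with medians of -0.08, 0.00 and -0.03 in muscle and 0.13, -0.01 and -0.02 in fat. Fastkd1 was at -0.22 (SE 0.09, adjusted p = 0.949) in muscle, and Mterf3 was at 0.25 (SE 0.08, adjusted p = 0.587) and Rexo2 at -0.30 (SE 0.10, adjusted p = 0.587) in fat.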

How the data were processed

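The authors deposited raw counts per Ensembl gene, unscaled. The submitters' processing notes name GRCm38 and the tools DESeq2 1.22.2, featureCounts 1.6.3 and STAR 2.7.0f, without a role. Strand setting and treatment of multiply mapping reads: not given in the sources used here. The table's 55536 identifiers all matched GENCODE M21, and each column matched a sample's label. The labels name no molecular identifiers, so counting limits cover counting error only. Replicates differed by more than sampling noise (chi-square per degree of freedom at least 8.23).

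Genes were tested with the quasi-likelihood test of edgeR 4.0.16 (R 4.3.3; TMM, filterByExpr, robust), with Benjamini-Hochberg adjustment over all genes tested. The SE is the absolute log2 fold change over the square root of F. Class shares are descriptions without a test. DESeq2 1.42.0, other scalings, filters, fits and omissions were the alternatives. The test was tested on simulated counts for each comparison but the interaction. The nuclear word search used annotated transcripts on either strand.

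The subject number pairs the tissues of an animal. Deviations of paired libraries correlated at -0.022 to 0.199 over 16903 genes. Named were all mitochondrial genes, Myd88, CT010467.1, nuclear copies, and up to 4 genes with the smallest p of each nuclear list. Cox8a, Cox6a2, Cox8b, Mterf1a, Mterf1b, Trmt61b, Pus1 and, between tissues, Rexo2 were named after their values were seen. Prorp and Fastkd4 were not matched by symbol. Members and lists were chosen with earlier results of these data known.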

Additional observations from a re-analysis of the deposited data

Results flagged for a closer look

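Of 120 groups of 4 libraries examined, 17 held a library whose gap to its neighbour, as a share of the group's range, exceeded the critical value of Dixon's test for 4 samples; chance gives about 1 in 20 groups, and these quantities share libraries. In knockout muscle, mouse 139 stood apart with low mt-Rnr1 (224 CPM; the others 3001 to 3495) and mt-Rnr2 (6108 CPM; 31177 to 33213), a low mitochondrial share of all counts (3.83%; 6.58 to 6.996%) and a low rRNA share of mitochondrial counts (16.5%; 48.9 to 55.3%). The same library had high ratios of mt-Rnr2 to mt-Rnr1 (27.2; the others 9.50 to 10.4) and of mt-Co1 to mt-Nd1 (12.4; 6.67 to 7.23). Mouse 29 of that group was high for mt-Tl1 (3.26 CPM; 2.23 to 2.31).

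In control muscle, mouse 137 was high for mt-Cytb (4011 CPM; the others 2379 to 2588) and for the coding share of all counts (3.80%; 2.94 to 3.02%), and mouse 138 was low for mt-Tl1 (1.37 CPM; 2.79 to 2.96). In knockout fat, mouse 960 was high for mt-Nd4 (1556 CPM; 707 to 849), mt-Rnr2 (36978 CPM; 25668 to 27062) and the ratio of mt-Nd5 to mt-Nd1 (0.922; 0.467 to 0.518). In control fat, mouse 131 was high for mt-Rnr1 (9344 CPM; 1438 to 2282) and low for the ratio of mt-Rnr2 to mt-Rnr1 (5.74; 9.98 to 10.2), and mouse 138 was low for mt-Nd5 (314 CPM; 803 to 851) and for the ratio of mt-Nd2 to mt-Nd1 (0.182; 0.270 to 0.283).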

How the results depend on the processing

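In the genotype comparisons 0 mitochondrial genes were called under any alternative. Over all genes, the muscle comparison called 2, but 27 with the mitochondrial coding total as library size, 80 without a filter, 1 with a minimum of 1 CPM in 4 libraries, 9 with DESeq2, and 1 to 10 leaving out 1 mouse at a time. The fat comparison called 1, but 54 with DESeq2, 6 in 1 fit of all 16 libraries, 0 without mice 131 and 11, and 0 to 6 leaving out 1 mouse. The interaction called 0, and 13 with DESeq2. Near-zero fold changes changed sign. In muscle these were mt-Rnr1 (-0.17 without mice 131 and 11; -0.29 to 0.40 leaving out 1 mouse), mt-Rnr2 (0.021 with the coding total; -0.36 to 0.29) and mt-Co1 (0.024 with library totals, 0.012 with the coding total; -0.11 to 0.011). In fat they were mt-Rnr1 (1.11 without mice 131 and 11; -0.45 to 0.97), mt-Rnr2 (0.031 with library totals, 0.74 without mice 131 and 11; -0.27 to 0.60) and mt-Co1 (-0.064 with the coding total; -0.037 to 0.35). Of muscle against fat, 17 calls became 6 with library totals and 8 with the coding total, by the construction of these scales. Leaving out 1 mouse gave 15 to 19 calls among 19 to 21 genes tested, and the 19 were of 20 tested without mouse 131. With library totals the fold changes below 0 were mt-Rnr1 -0.59, mt-Rnr2 -0.13, mt-Tq -0.074, mt-Ta -0.58, mt-Ty -0.23, mt-Nd4 -0.14, mt-Nd5 -0.46, mt-Cytb -0.0065 and mt-Tp -0.012. With the coding total they were mt-Rnr1 -0.92, mt-Rnr2 -0.50, mt-Tq -0.46, mt-Tm -0.12, mt-Nd2 -0.31, mt-Ta -0.97, mt-Ty -0.63, mt-Nd3 -0.39, mt-Nd4 -0.50, mt-Nd5 -0.79, mt-Nd6 -0.055, mt-Cytb -0.37 and mt-Tp -0.41. With the mouse as replicate block 16 of 19 were called, all but mt-Rnr2 among the 17, and 0 in the interaction, where mt-Nd5 and mt-Nd3 had an unadjusted p under 0.05. Without rRNA genes the mitochondrial share was 3.29% in knockout muscle, 3.32% in control muscle, 2.76% in knockout fat and 2.35% in control fat. For changes in sign among the genotype folds the cause was not tested. Most tRNA genes and 5 coding genes had too few counts to be tested, and rRNA removal limits what mt-Rnr1, mt-Rnr2 and all shares of the mitochondrial total can show. With 4 mice a group, the SE of the abundant genes in fat reached 0.41 for mt-Co1, so small genotype differences were not detectable.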
